A study of Mus musculus with 6 samples.

Results

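The transcripts described here are those of the mitophagy receptors Bnip3, Bnip3l, Fundc1, Bcl2l13 and Fkbp8 and of the mitophagy kinase Pink1, chosen by symbol. All 6 were found among the 52459 rows of the count table, and all 6 were among the 19565 genes that passed the filter on low counts. They were measured by bulk RNA sequencing of whole brains from C57BL/6 mouse embryos at E14.5, in 3 libraries labelled Mfsd7c-/- knockout and 3 labelled wild type. Mfsd7c, now named Flvcr2, encodes a membrane transporter, and neither the deleted part of the gene nor the litters are stated in its labels. The p-values set the difference between the groups against the spread among the libraries within a group. With the litters not stated, a difference between litters cannot be told apart from that of genotype. Wherever 3 values are listed for a group, they follow replicates 1, 2 and 3.

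Mitophagy is the removal of mitochondria by autophagosomes. In the receptor route, proteins of the outer mitochondrial membrane bind LC3 or GABARAP proteins on the autophagosome directly. In the other route the kinase PINK1 builds up on damaged mitochondria and starts the ubiquitin marking that adaptor proteins read. BNIP3 and BNIP3L, also called NIX, are related membrane proteins, and their genes are known targets of the hypoxia-inducible factors (HIF). BNIP3L also clears mitochondria from maturing red blood cells. All values below are transcript levels, which do not measure the proteins or mitophagy itself.

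The libraries held 43784619 to 50549673 counts. Mfsd7c had 119 to 130 counts in the knockout libraries and 206 to 291 in the wild-type libraries. Neuronal markers summed to 6413 to 7437 CPM (counts scaled to library size) and radial glia markers to 2010 to 2108 CPM over the 6 libraries, with none of the 9 and 9 markers at 0 in any library. Some libraries stood apart. Knockout replicate 1 and wild-type replicate 1 were rich in epidermal transcripts (559 and 478 CPM over 10 markers, against 33.9 to 107 in the others). Wild-type replicates 2 and 3 carried hindbrain and spinal cord Hox transcripts (93.9 and 32.7 CPM over 9 markers, 5 of them at 0 in some library). Wild-type replicate 1 had 3.70 CPM and the knockout libraries 0.572 to 2.25 CPM, so the groups did not overlap in this sum. Whether the tissue taken differed between the groups was not tested. The embryonic share of beta-globin counts was 2.80% to 5.03% in wild-type replicate 1 and in knockout replicates 1 and 3, and 23.3% to 26.5% in the other libraries. Wild-type replicate 2 had 82198 Xist counts and the other libraries 6 to 27, which marks it as the single female library.

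In the knockout brains Bnip3 rose 3.75-fold, and it was the 1 member of the 6 to pass the test. Over all 19565 genes, 0.659% passed in either direction and 0.624% passed as higher. Bnip3l was 1.31-fold higher with no overlap between the groups, but missed the threshold in the edgeR quasi-likelihood test and passed in the DESeq2 Wald test. Fundc1, Bcl2l13, Fkbp8 and Pink1 overlapped between the groups, with log2 fold changes from -0.12 to 0.06.

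**Figure D1:**
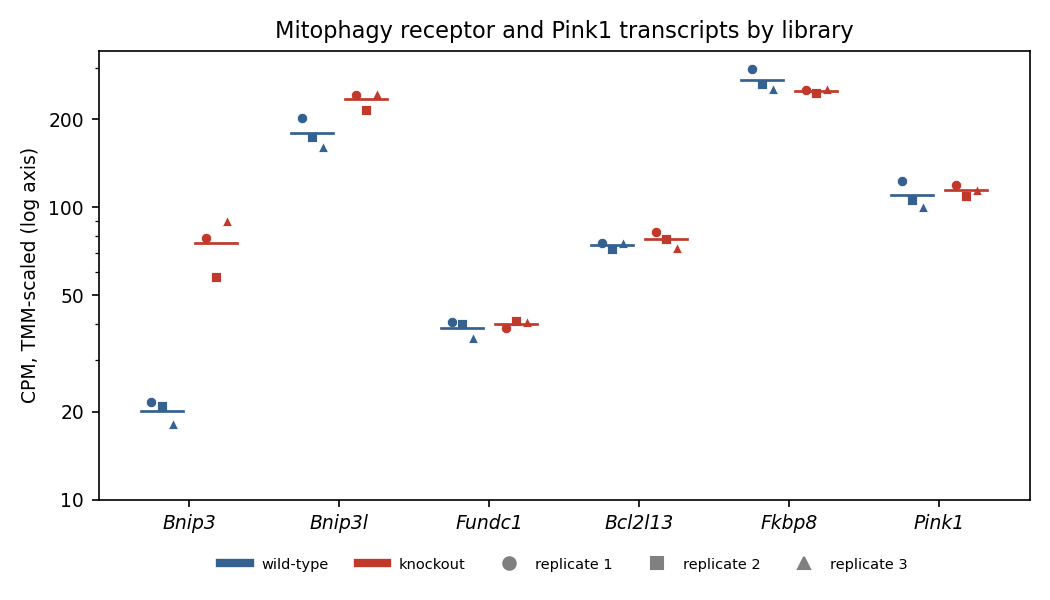
CPM of the 6 transcripts on a log axis, 1 symbol per library (circle, square and triangle for replicates 1, 2 and 3) and a line at each group's mean, wild-type in blue and knockout in red. Bnip3 at 57.9 to 90.0 CPM in knockout lies clear of 18.1 to 21.5 CPM in wild-type, Bnip3l is separated by less, and the other 4 overlap.

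Bnip3 (ENSMUSG00000078566.8) lies on the minus strand of chromosome 7 from 138890836 to 138909519 in the GRCm38 annotation. Its start region is shown because this is the transcript that moved, beside those of Fkbp8 and Pink1, which did not pass the test and carry some of the same letters. The core letters of the HIF binding site, ACGTG or GCGTG, are in capitals on either strand, so a site on the opposite strand reads CACGT or CACGC. Each window is RefSeq's GRCm38.p6 sequence from 250 bases before to 50 bases after the start site, and 5 of the 6 members had a window.
Bnip3, chr7:138909457-138909756, minus strand: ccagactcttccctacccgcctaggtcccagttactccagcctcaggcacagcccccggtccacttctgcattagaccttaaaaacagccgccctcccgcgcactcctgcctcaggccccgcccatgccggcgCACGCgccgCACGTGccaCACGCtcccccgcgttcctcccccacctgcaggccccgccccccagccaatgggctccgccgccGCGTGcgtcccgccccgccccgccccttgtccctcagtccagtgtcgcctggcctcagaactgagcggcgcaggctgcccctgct
Fkbp8, chr8:70527493-70527792, plus strand: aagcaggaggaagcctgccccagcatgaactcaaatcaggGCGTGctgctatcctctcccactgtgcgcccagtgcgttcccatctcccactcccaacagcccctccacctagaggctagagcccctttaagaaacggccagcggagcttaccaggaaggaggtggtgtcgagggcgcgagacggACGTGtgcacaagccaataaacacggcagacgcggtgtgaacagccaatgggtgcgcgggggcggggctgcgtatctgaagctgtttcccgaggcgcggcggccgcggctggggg
Pink1, chr4:138326247-138326546, minus strand: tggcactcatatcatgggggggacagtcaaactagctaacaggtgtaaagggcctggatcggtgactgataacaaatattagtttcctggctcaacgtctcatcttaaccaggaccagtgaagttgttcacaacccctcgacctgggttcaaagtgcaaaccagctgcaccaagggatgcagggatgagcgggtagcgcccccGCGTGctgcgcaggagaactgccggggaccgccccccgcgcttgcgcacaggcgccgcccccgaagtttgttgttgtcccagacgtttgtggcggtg
The Bnip3 window held 2 overlapping ACGTG matches, 1 on each strand, at 108 bases upstream of the start site, and 3 GCGTG matches. The Fkbp8 window held 1 match of each motif and the Pink1 window 1 GCGTG match. Bcl2l13 had 1 GCGTG match and Fundc1 none of either, but the Fundc1 window is centred on a start site 318 bases downstream of the GENCODE gene start. Of all 32851 RefSeq windows of the same length, 19.6% held ACGTG and 32.4% held GCGTG. Among the 30 windows found under the symbols of 22 known HIF target genes the shares were 60% and 56.7%. A gene could have several windows or none. G and C made up 71.7% of the Bnip3 window and 58% to 64% of the other members' windows. The shares were not matched for base composition. A match describes the letters in the window and is not a measured binding site.

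Bnip3 stood at 78.4, 57.9 and 90.0 CPM across the knockout brains, compared with 21.5, 20.9 and 18.1 CPM across the wild-type brains. Every knockout library was above every wild-type library, and knockout replicate 2 was the lowest of the knockouts. The knockout mean was 75.5 ± 16.2 CPM and the wild-type mean 20.2 ± 1.81 CPM (SD, n = 3 each). On the log2 scale the difference was 1.90 (SE 0.156, edgeR adjusted p = 0.00150), with a 95% confidence interval of 2.92-fold to 4.80-fold. By size it ranked 39 among the 19565 genes tested. The authors' deposited table gives a log2 fold change of 1.91 (DESeq2 adjusted p = 3.09e-34). The spread among the knockout libraries, a coefficient of variation of 21.5%, was the widest of any member in either group, against 8.98% for Bnip3 in wild type. With both keratin-rich libraries left out (knockout replicate 1 and wild-type replicate 1), 459 of all tested genes passed, against 129 with all 6 libraries. In that fit the log2 fold change of Bnip3 was 1.93 (SE 0.288, edgeR adjusted p = 0.120). Without wild-type replicates 2 and 3, the Hox-expressing libraries, it was 1.81 (edgeR adjusted p = 0.354). The latter fit sets 3 knockout libraries against a single wild-type library, which is assumed to vary as the knockouts do, so its p says little and the fold change is given as a value. Within the libraries of low embryonic globin share, 2 knockout and 1 wild-type, Bnip3 was 1.96 higher on the log2 CPM scale, and within those of high share, 1 knockout and 2 wild-type, 1.57 higher.

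Summed markers of 2 other cell types also separated with genotype, though single endothelial markers went both ways and few mural markers were called. The 10 endothelial markers summed to 387 to 428 CPM in knockout and 298 to 364 in wild type. None was at 0 in any library. In edgeR 3 of them rose (Pecam1, Flt1 and Emcn) and 1 fell (Cldn5), against 0.659% of all tested genes passing in either direction. The 8 mural cell markers summed to 135 to 145 CPM in knockout and 193 to 219 in wild type, again with none at 0. Of these, 1 (Rgs5) fell in edgeR, and 2 had an unadjusted p under 0.05, against 8.09% of all tested genes. In whole brain, fewer cells of a type and less RNA per cell cannot be told apart, and the part of these cell types in the Bnip3 result was not tested.

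Bnip3l (ENSMUSG00000022051.15; chromosome 14, 66985239 to 67008877, minus strand) was measured at 242, 215 and 244 CPM in the knockout libraries. Its wild-type values were 202, 174 and 160.5 CPM. The groups did not overlap, though the lowest knockout and the highest wild-type library lay close together. No overlap in this direction was seen for 7.84% of all tested genes and for 2 of the 6 members, Bnip3 and Bnip3l. Mean levels were 234 ± 16.0 CPM with the knockout and 179 ± 20.9 CPM without it (SD, n = 3 each). The log2 difference was 0.39 (SE 0.0918), with an edgeR adjusted p = 0.189 and an unadjusted p = 0.00253. The 95% confidence interval of the fold change ran from 1.13 to 1.51.

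Whether Bnip3l was called rested on the test and on which libraries were used. The DESeq2 Wald test, which called 1.63% of genes, called it (adjusted p = 0.00945), and so does the authors' deposited table (DESeq2 adjusted p = 0.00918, with 1.5% of its genes past 0.05). limma-voom, with 0.603% of genes past the threshold, did not (adjusted p = 0.209). With wild-type replicate 1 left out, the log2 fold change was 0.48 (edgeR adjusted p = 0.00924), and without both keratin-rich libraries 0.46 (edgeR adjusted p = 0.00835). Those fits called 388 and 459 of all tested genes, against 129 with all 6 libraries. Leaving out any other single library gave 0.316 to 0.445 and no call (edgeR adjusted p = 0.178 to 0.791). A sex term gave 0.37 and no call (edgeR adjusted p = 0.723). Bnip3l also passed without a low-count filter (edgeR adjusted p = 0.0228, with 211 genes called). It passed too with a term for the low and high embryonic globin libraries (0.32, edgeR adjusted p = 0.00823, with 236 genes called). Without both Hox-expressing libraries, where wild-type replicate 1 alone stands for its group, the log2 fold change was 0.22.

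Erythroid transcripts also differed between libraries. The erythroid list, 11 of whose 12 markers were in the table and none at 0 in any library, summed to 3473, 1486 and 3489 CPM in the knockout libraries. The wild-type sums were 2406, 973 and 1027 CPM, so the groups overlapped. Knockout replicate 2 was the lowest of the knockouts and wild-type replicate 1 the highest of the wild types for both this list and Bnip3l. That order was not particular to Bnip3l, since Bnip3, Fkbp8 and Pink1 also had it, while Fundc1 and Bcl2l13 did not. With the erythroid sum as a covariate, an alternative chosen after seeing the data, the log2 fold change was 0.22 for Bnip3l (edgeR adjusted p = 0.161) and 1.62 for Bnip3 (edgeR adjusted p = 0.00168). Within the low and high embryonic globin libraries Bnip3l was 0.27 and 0.36 higher on the log2 CPM scale.

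**Figure D2:**
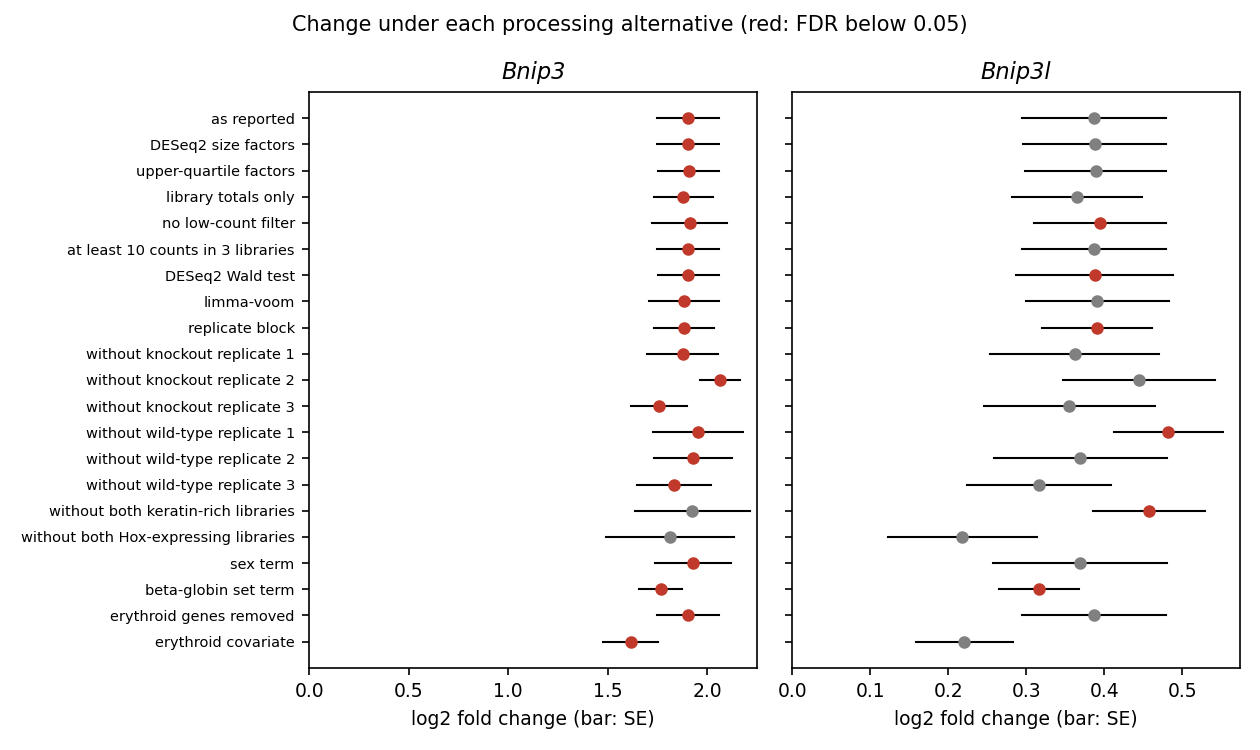
Log2 fold change of Bnip3 (left) and Bnip3l (right), knockout over wild-type, under each processing alternative, with bars of 1 SE and red points where the adjusted p was below 0.05. Bnip3 stays between 1.62 and 2.07 and Bnip3l between 0.22 and 0.48.

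The change of Bnip3 was set against those of other members by ratios of counts within a library, which need no scaling between libraries. Per count of Bnip3l there were 0.324, 0.269 and 0.369 counts of Bnip3 in the knockout brains, compared with 0.107, 0.119 and 0.113 in the wild-type brains. The mean log2 ratio was 1.49 higher in knockout, and the groups did not overlap (exact two-sided permutation test, p = 0.1). That is the smallest p that 3 against 3 allows, and the adjusted value over the 4 ratios computed, 3 of them given here, was 0.133. The Bnip3 to Pink1 ratio was 0.531 to 0.785 in knockout and 0.174 to 0.196 in wild type, 1.82 higher in log2 (exact two-sided permutation test, p = 0.1). For Bnip3l to Fundc1 the ratio was 5.29 to 6.29 in knockout and 4.36 to 4.98 in wild type, 0.34 higher in log2 (exact two-sided permutation test, p = 0.1). None of these can pass 0.05 in this design.

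Fundc1 (ENSMUSG00000025040.13; chromosome X, 17556564 to 17572325, minus strand) encodes an outer membrane receptor whose binding to LC3 is controlled by phosphorylation. The knockout libraries gave 38.5, 40.8 and 40.5 CPM and the wild-type libraries 40.5, 40.0 and 35.6 CPM. The groups overlapped, and the female library, wild-type replicate 2, lay inside the range of the others. The fold change was 1.03, with a 95% confidence interval of 0.921 to 1.16 (edgeR adjusted p = 0.910).

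Bcl2l13 (ENSMUSG00000009112.4; chromosome 6, 120836212 to 120892842, plus strand) encodes a BCL-2-like outer membrane receptor. It reached 82.5, 77.7 and 72.7 CPM with the knockout and 75.7, 71.8 and 75.5 CPM without it. The highest value and a value near the lowest were both in knockout libraries. The fold change was 1.04, with a 95% confidence interval of 0.949 to 1.15 (edgeR adjusted p = 0.838).

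Fkbp8 (ENSMUSG00000019428.16; chromosome 8, 70527724 to 70535328, plus strand) encodes a membrane-anchored FK506-binding protein that recruits LC3. Knockout brains had 252, 246 and 253.5 CPM of it, and wild-type brains had 298, 263 and 253.5 CPM. Wild-type replicate 1 was the highest library, and wild-type replicate 3 was level with knockout replicate 3. Fkbp8 was the 1 member with a mean below wild type, at a fold change of 0.922 (95% confidence interval 0.824 to 1.03, edgeR adjusted p = 0.739).

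Pink1 (ENSMUSG00000028756.12; chromosome 4, 138313409 to 138326307, minus strand) encodes the kinase that starts the ubiquitin-dependent route. Its transcript measured 119, 109 and 115 CPM in the knockout brains and 123, 106 and 99.9 CPM in the wild-type brains. Wild-type libraries held both the highest and the lowest value. The fold change was 1.04 (95% confidence interval 0.916 to 1.18, edgeR adjusted p = 0.896). For Fundc1, Bcl2l13, Fkbp8 and Pink1 these intervals bound the change, and missing the threshold does not show that the groups were equal.

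**Figure D3:**
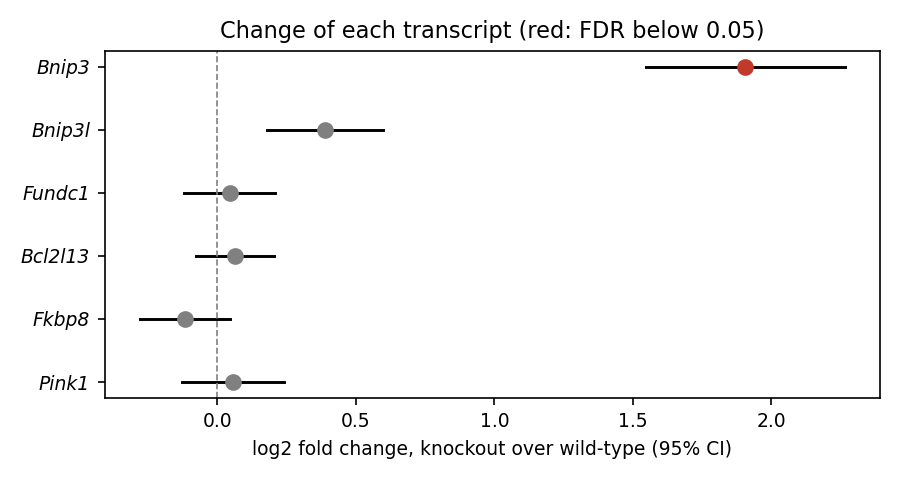
Log2 fold change of each transcript, knockout over wild-type, as a point with its 95% confidence interval from the edgeR fit, red where the adjusted p was below 0.05. Bnip3 sits at 1.90, Bnip3l at 0.39 with an interval above 0, and the intervals of the other 4 cross 0.

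Scaled to exon length as RPKM (library-scaled reads per kilobase of exon), the members differed widely in level. In wild type the order by mean was Fkbp8 at 60.0 ± 5.20 RPKM (SD, n = 3), Bnip3l at 46.3 ± 5.42, Pink1 at 41.1 ± 4.52, Fundc1 at 16.4 ± 1.14, Bnip3 at 8.90 ± 0.799 and Bcl2l13 at 8.17 ± 0.240. Bnip3l overlapped Pink1, and Bnip3 overlapped Bcl2l13, across the wild-type libraries, so those neighbours are not ordered beyond their spread. In knockout Bnip3l came first at 60.6 ± 4.15 RPKM (SD, n = 3) and overlapped Fkbp8 at 55.3 ± 0.859, followed by Pink1 at 42.8 ± 1.91. Bnip3 came next at 33.3 ± 7.17 RPKM (SD, n = 3), above Fundc1 at 17.0 ± 0.527 and Bcl2l13 at 8.54 ± 0.540 in every knockout library. Of the RPKM summed over the 6 transcripts, Bnip3 made up 4.77% to 5.19% in the wild-type libraries and 12.6% to 17.5% in the knockout libraries. Fkbp8 made up 32.8% to 33.6% in wild type and 24.6% to 26.9% in knockout. Each share depends on the levels of all 6 transcripts.

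The rest of the mitophagy machinery was read from lists whose genes were chosen for their roles. In edgeR, 0 of 23 tested genes of the PINK1 pathway and its adaptors passed, and 0 had an unadjusted p under 0.05. Their log2 fold changes ran from -0.23 to 0.19. The values nearest to a call were those of Rhot2, a mitochondrial transport GTPase, at -0.23 (edgeR adjusted p = 0.675) and Park7, a stress-sensing protein, at -0.11 (edgeR adjusted p = 0.753). The log2 fold change of Rhot2 turned sign, to 0.042, without both Hox-expressing libraries. Among 20 brakes and regulators of receptor mitophagy, such as Fbxl4 and Pptc7, which limit BNIP3 and NIX, 0 passed and 0 had an unadjusted p under 0.05. Their range was -0.08 to 0.11, with Prkaa2 and Siah1a at 0.11 and 0.10 (edgeR adjusted p = 0.800 and 0.801). DESeq2 and limma-voom called 0 genes of either list.

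The steps after receptor binding gave few calls by any tool. Over all tested genes, 0.659% passed in edgeR, 1.63% in DESeq2 and 0.603% in limma-voom, and 8.09% had an unadjusted p under 0.05. None of the 5 LC3 and GABARAP genes passed in edgeR, DESeq2 or limma-voom, and 0 had an unadjusted p under 0.05. Map1lc3b was at 0.06 and Gabarapl1 at 0.07 on the log2 scale (edgeR adjusted p = 0.878 and 0.886). Of 30 genes of autophagosome formation, 0 passed in edgeR, 3 had an unadjusted p under 0.05, DESeq2 called 1 and limma-voom 0. The DESeq2 call was Wipi1, which binds the growing autophagosome membrane, at 0.38 on the log2 scale (SE 0.0866, edgeR adjusted p = 0.157, DESeq2 adjusted p = 0.0126). Atg2a, a lipid transfer protein, was at -0.24 (edgeR adjusted p = 0.408). Of 23 lysosomal genes 0 passed by any of the 3 tools and 1 had an unadjusted p under 0.05, the channel gene Mcoln1 at -0.27 (edgeR adjusted p = 0.588), beside the protease gene Ctsl at 0.25 (edgeR adjusted p = 0.625).

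The mitochondria-related lists likewise had no gene past the threshold. An unadjusted p under 0.05, counted below, was found for 8.09% of all tested genes. Among 13 fission and fusion genes and 22 tested genes of the outer membrane, import and mitochondrial mass, 0 and 0 passed by any of the 3 tools, and 1 and 2 had an unadjusted p under 0.05. The fission adaptor Fis1 was at -0.15 (edgeR adjusted p = 0.604) and the fission GTPase gene Dnm1l at 0.06 (edgeR adjusted p = 0.816). Timm50, an import subunit, was at -0.17 (edgeR adjusted p = 0.465) and the chaperone gene Hspa9 at 0.18 (edgeR adjusted p = 0.476). In the BCL-2 family, to which Bnip3 and Bnip3l are related, 0 of 17 tested genes passed by any of the 3 tools and 2 had an unadjusted p under 0.05. These were Bcl2l15, scarce at 0.212 CPM in knockout and 0.524 CPM in wild type with a log2 fold change of -1.30 (edgeR adjusted p = 0.243), and Bmf at -0.30 (edgeR adjusted p = 0.488).

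Regulators known to act on the members did not pass in edgeR or limma-voom either, with 0 of 15 tested. An unadjusted p under 0.05 was found for 5 higher and 0 lower, against 8.09% of all genes in either direction. For 6 of the 15 the knockout libraries lay above the wild-type libraries with no overlap, against 7.84% of all genes. DESeq2 called 1 regulator. That was Foxo3, a transcription factor known to drive Bnip3 and Bnip3l in muscle, at 53.7 ± 2.02 CPM in wild type and 69.8 ± 6.16 CPM in knockout (SD, n = 3). Its log2 fold change was 0.38 (SE 0.0747, edgeR adjusted p = 0.0910, DESeq2 adjusted p = 0.00243). Atf4, the transcription factor of the integrated stress response, was at 0.18 (edgeR adjusted p = 0.391). Over the union of these 9 lists, 0 of 156 tested genes passed in edgeR and 14 had an unadjusted p under 0.05, 7 higher and 7 lower. Over all tested genes 8.09% had such a p. The union had a median log2 fold change of 0.01, against -0.01 over all genes.

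The last list held known HIF targets outside mitophagy. In edgeR 14 of 22 rose, against 0.624% of all tested genes, and 0 fell. Their median log2 fold change was 1.03, and DESeq2 called 20, against 1.63% of all genes in either direction. Slc16a3, a lactate exporter, was at 3.02 and Pdk1, a pyruvate dehydrogenase kinase, at 1.56. This list was chosen with earlier results of these data known and is not independent evidence of its direction. Leaving out wild-type replicate 2 gave 5 of the list, where 36 of 19972 tested genes passed. Leaving out wild-type replicate 3 gave 7, with 44 of 20008 passing, and a sex term gave 6, with 37 of 19565 passing. The fit that gave 14 called 129 of 19565 genes. The count also fell without both Hox-expressing libraries, where a single wild-type library was left. Bnip3 lay above the median of the list and Bnip3l below it.

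**Figure D4:**
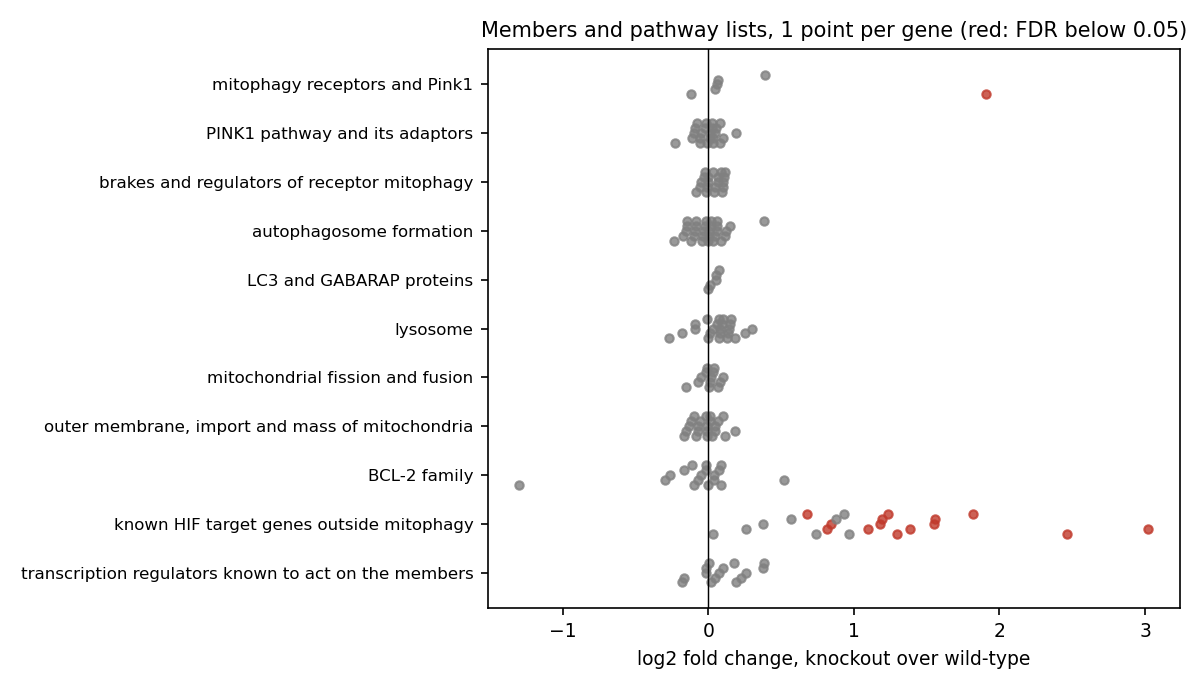
Log2 fold change, knockout over wild-type, with 1 point per gene for the 6 members and for each of the 10 lists, red where the edgeR adjusted p was below 0.05. Red points appear for Bnip3 and in the HIF target list (14 of 22), and in none of the other 9 lists.

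The genes whose pattern over the 6 libraries was most like that of each BNIP3 family member were found by the root mean square difference of log2 CPM after centring on the wild-type mean. The 5 nearest to Bnip3, at differences of 0.14 to 0.20, included Ptpn7, Ppp1r3g, Adgrl4 and H2-Ab1. Since they were chosen for likeness to Bnip3, their fold changes and calls follow from that choice and are a description. All 5 passed in edgeR (0.624% of all genes passed as higher), at log2 fold changes from 1.66 for Adgrl4, an endothelial adhesion receptor, to 2.06 for Ptpn7, a phosphatase. Ptpn7, Ppp1r3g and H2-Ab1 were scarce, with knockout means of 1.81, 2.19 and 1.64 CPM. For Bnip3l the nearest were Ccng1, Igfbp5, Tnfrsf1a, Wipi1 and H2-D1, at differences of 0.04 to 0.05. None of those 5 passed in edgeR (adjusted p from 0.157 to 0.429), though 5 had an unadjusted p under 0.05, and DESeq2 called Wipi1.

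Some reads could belong to overlapping genes, since no source used here gives the strand setting. Gm45507, antisense to Bnip3 with 504 shared exon bases, had 0 counts in every library. Gm18258, a pseudogene in a Bnip3 intron, had 15 to 29 counts in knockout and 4 to 12 in wild type. Bcl2l13 shares 628 exon bases with Bid on the other strand, which had 809 to 911 counts in knockout and 813 to 863 in wild type. Fkbp8 shares 224 with Kxd1, at 1062 to 1097 counts in knockout and 1059 to 1130 in wild type. The processed pseudogene Bnip3l-ps had 46 to 50 counts in knockout and 31 to 37 in wild type, beside at least 8044 counts of Bnip3l in each library. These neighbours were chosen by position or name after the values were seen.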

How the data were processed

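Sequencing covered E14.5 whole brains, with samples grouped by title (3 knockout, 3 wild-type). The deposited values are raw counts per gene symbol. The submitters' processing notes name DESeq2 1.12.4, featureCounts and STAR 2.5.2a, with the builds mm10 and hg19. Their annotation release and strand setting are not stated there. The authors' deposited table holds, per the file headers, a mean normalized signal, a Wald score, p-values, and the log2 change and its error.

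Genes kept by filterByExpr in edgeR 4.0.16 were scaled by TMM and tested with the robust quasi-likelihood test, with Benjamini-Hochberg adjustment over all genes at an FDR of 0.05. The SE is the log2 fold change over the square root of F. CPM uses TMM-scaled totals, RPKM the exon union of GENCODE M21 (GRCm38), and log2 CPM a prior count of 2. The edgeR script was tested on simulated data. The share of false calls there was above the nominal FDR when each gene had its own dispersion and below it when dispersions followed the trend. Alternatives included DESeq2 1.42.0 and limma 3.58.1 (voom), in R 4.3.3. Members and lists were chosen with earlier results of these data known. Besides the members, the text names the 2 genes of lowest p in each list and the 5 genes nearest in pattern to Bnip3 and to Bnip3l, the latter 5 without clone names or genes whose higher group mean was under 1 CPM. A count ratio and 1 gene near Bnip3 are not reported here. All pairs of libraries differed beyond sampling noise (chi-square per degree of freedom at least 9.88). Counting error is small for the members, whose lowest count was 907.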

Additional observations from a re-analysis of the deposited data

How the results depend on the processing

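Leaving out both keratin-rich or both Hox-expressing libraries, a sex term and a beta-globin set term were chosen with earlier results of these data known, and the erythroid covariate after seeing the data. Bnip3 was higher under all 20 alternatives. Its log2 fold change was 1.76 to 2.07 without single libraries. It lost its call at 1.93 without both keratin-rich libraries and 1.81 without both Hox-expressing libraries, and in no other alternative. The former leaves 2 libraries a group, though it called more genes than the fit of all 6 libraries (459 against 129). The latter leaves 1 wild type, whose spread is taken from the knockouts. Bnip3l, not called by edgeR, was called at 0.39 without a low-count filter (adjusted p = 0.0228), 0.39 in the DESeq2 Wald test, 0.46 without both keratin-rich libraries and 0.32 with the beta-globin set term (adjusted p = 0.00823), and ranged from 0.32 to 0.48 without single libraries, with a call only when wild-type replicate 1 was left out (0.48, adjusted p = 0.00924). The causes were not tested.

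Replicate numbers did not clearly pair the samples. Deviations correlated at 0.587, 0.310 and 0.0337 for numbers 1, 2 and 3, and the highest value for knockout replicate 2 was with wild-type replicate 3 (0.478). With the replicate block Bnip3l was at 0.39 (adjusted p = 0.0284), Bnip3 at 1.88 (adjusted p = 0.00236), and 282 genes passed.

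Of all tested genes 129 passed. The number was 211 without a low-count filter, 318 in the DESeq2 Wald test, 459 without both keratin-rich libraries, 20 without both Hox-expressing libraries, 37 with the sex term and 236 with the beta-globin set term. It was 36 to 388 without single libraries.

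Some uncalled values turned sign, among them Rhot2 from -0.23. Without both Hox-expressing libraries they were -0.015 for Fundc1, -0.11 for Pink1, 0.042 for Rhot2, -0.043 for Prkaa2, -0.036 for Siah1a and -0.067 for Gabarapl1. With the erythroid covariate they were -0.076 for Pink1, -0.046 for Prkaa2, -0.0051 for Siah1a, -0.044 for Map1lc3b and -0.11 for Gabarapl1, which was at -0.0071 with the beta-globin set term. Without single libraries the range was -0.0099 to 0.080 for Fundc1 and -0.0044 to 0.15 for Pink1. Of 780 other checks on named genes and lists, 717 kept direction and side of the threshold, 19 gained a call, 21 lost one, 9 turned sign and 14 counts moved by more than 1.5 times. Those 14 were the HIF target counts in the settings named in the report, 1 to 2 genes of autophagosome formation in 3 settings, and 1 regulator in 7 settings.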

Other observations

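The summed RPKM of the 6 transcripts was 223, 202 and 227 in the knockout libraries and 199, 177 and 166 in the wild-type libraries, listed in replicate order, so the groups did not overlap. Without Bnip3 the sums were 188, 177 and 187 in knockout and 190, 168 and 158 in wild type, and they overlapped. Without Bnip3 and Bnip3l they were 126, 121 and 124 in knockout and 137, 123 and 117 in wild type.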
